A study of Homo sapiens
Mus musculus with 6 samples.

Results

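The genes described here are 10 members of the Notch pathway, read in human HEK cells, with or without an introduced ligand, in co-cultures with mouse myoblasts. They were the receptors NOTCH1, NOTCH2 and NOTCH3, the ligands JAG1, JAG2 and DLL1, the ligand ubiquitin ligase MIB1, and the target genes HES1, HEY1 and NRARP. They were chosen by name, as 10 of the 23855 genes of the human table, and all 10 passed the filter on low counts that left 13596 genes for testing. RNA sequencing was run on 6 wells of mixed mouse and human cells, so that transcripts of the HEK cells could be counted apart from those of their partners.

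The human cells were HEK293-Flp-In cells, an embryonic kidney line with a defined genomic site into which a gene can be recombined. HEK-control carried no introduced Jag1, HEK-Jag1WT carried the wild-type ligand, and HEK-Jag1Ndr carried Jag1Ndr, the Nodder missense form. The mouse cells were C2C12, a line of skeletal myoblasts, as the control line (C2C12-control) or as a line with full-length Notch1 (C2C12-Notch1). Both Jag1 lines were cultured with hygromycin and C2C12-Notch1 with puromycin, whereas neither drug is given for the control lines. All C2C12 cells, controls included, settled for 8 h and received 1.6 ug of the plasmid pcDNA5 per well. HEK cells were added 18 h after this transfection, and the wells were lysed after 6 h of co-culture. Each of the 6 combinations of lines was 1 well, so each HEK line was seen in 2 wells and each C2C12 line in 3. The sources used here give neither the promoter driving Jag1 nor whether a line was a clone. A difference between HEK lines therefore cannot be told apart from the drug or from any other difference between these lines. No label says that wells came from separate cultures, and no combination of lines was repeated. The p-values here rest on counting error and on how far wells depart from the summed effects of their HEK and C2C12 lines. The spread of each gene was also moderated toward that of all tested genes, and very small p-values lean on that shared spread. The departures may be technical, and they cannot be told apart from a response that depends on the partner.

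In Notch signalling a ligand on one cell binds a receptor on its neighbour. Ubiquitination of the ligand by enzymes such as MIB1 lets the sending cell internalise it, and the pull exposes the receptor to cleavage by ADAM proteases and then gamma-secretase. The freed intracellular domain enters the nucleus, joins RBPJ and Mastermind-like proteins, and activates genes such as HES1, HEY1 and NRARP. Ligand and receptor on the same cell can also bind each other, which usually hinders reception. HEK cells have endogenous receptors and ligands of their own, so a line used as a sender can also receive.

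Human reads per well ranged from 4081452 to 10292878. Mouse reads made up 47.2 to 52.7% of all gene reads in the 3 wells with C2C12-control and 29.6 to 36.5% in the 3 with C2C12-Notch1. The 12 markers listed for HEK cells had a median of 30.9 RPKM in the human table (reads per kilobase of gene, scaled to the total of human reads) and 0.697 RPKM in the mouse table. Of these 12, LHX1 and NEFM were below 1 RPKM in the human table, and KRT19, NEFL and CDH2 were plainly present in both tables. The 12 myoblast markers had a median of 0.170 RPKM in the human table against 87.2 in the mouse table, and MYF5, MYOG and MYMK had 0 human reads. Their summed level in the human table was 5.81 to 6.03 RPKM in the HEK-control wells, 3.45 to 4.88 in the HEK-Jag1WT wells and 8.82 to 9.70 in the HEK-Jag1Ndr wells.

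The introduced ligand was counted in the mouse table. Mouse Jag1 had 110 and 280 reads in the wells with HEK-control, beside C2C12-control and C2C12-Notch1 respectively. It had 42347 and 46762 reads in those with HEK-Jag1WT, and 63416 and 63145 in those with HEK-Jag1Ndr. Depth differed between these wells. Scaled to a common total of human reads, mouse Jag1 was 8221 and 8701 with HEK-Jag1WT and 8878 and 9448 with HEK-Jag1Ndr. On that scale it was 27.0 and 27.2 with HEK-control, and the Jag1 lines lay closer together than in raw reads. These counts separate the Jag1 lines from HEK-control as labelled; they do not tell Jag1WT from Jag1Ndr. Human JAG1 reads amounted to 0.355 to 0.648% of the mouse Jag1 reads in the 4 wells with a Jag1 line, so most of the JAG1-type message there was the introduced one. If all of those human JAG1 reads were misassigned, 0.648% would be the largest share of mouse reads reaching the human table. Among 9 myoblast markers with at least 1000 mouse reads, the corresponding human share had a median of 0.292%. It ran from 0%, at MYF5, to a maximum of 4.29%, at COL1A1. Results were therefore also computed with the mouse orthologue's reads subtracted at 0.648%, and, chosen after the data were seen, at 4.29%. JAG1, from which the 0.648% was taken, was left out of both subtractions.

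All 10 genes were detected in all 6 wells. HEY1 was the most abundant on the RPKM scale, with a mean of 46.9 ± 14.1 (SD, n = 6 wells) and a range of 31.4 to 65.6. It lay above NOTCH2 in 6 of 6 wells, and their ranges did not overlap. NOTCH2, at 27.3 RPKM, and HES1, at 26.2, stood next and could not be ordered, with NOTCH2 above HES1 in 3 of 6 wells. NRARP and MIB1 both averaged 20.7 RPKM, and their ranges overlapped those of HES1 and of each other. The remaining 5 genes lay lower, from JAG2 at 11.4 RPKM through NOTCH3 at 8.34, NOTCH1 at 8.13 and JAG1 at 7.94 to DLL1 at 3.98. NOTCH3, NOTCH1 and JAG1 could not be ordered among themselves, whereas JAG2 was above NOTCH3, and JAG1 above DLL1, in 6 of 6 wells.

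**Figure D1:**
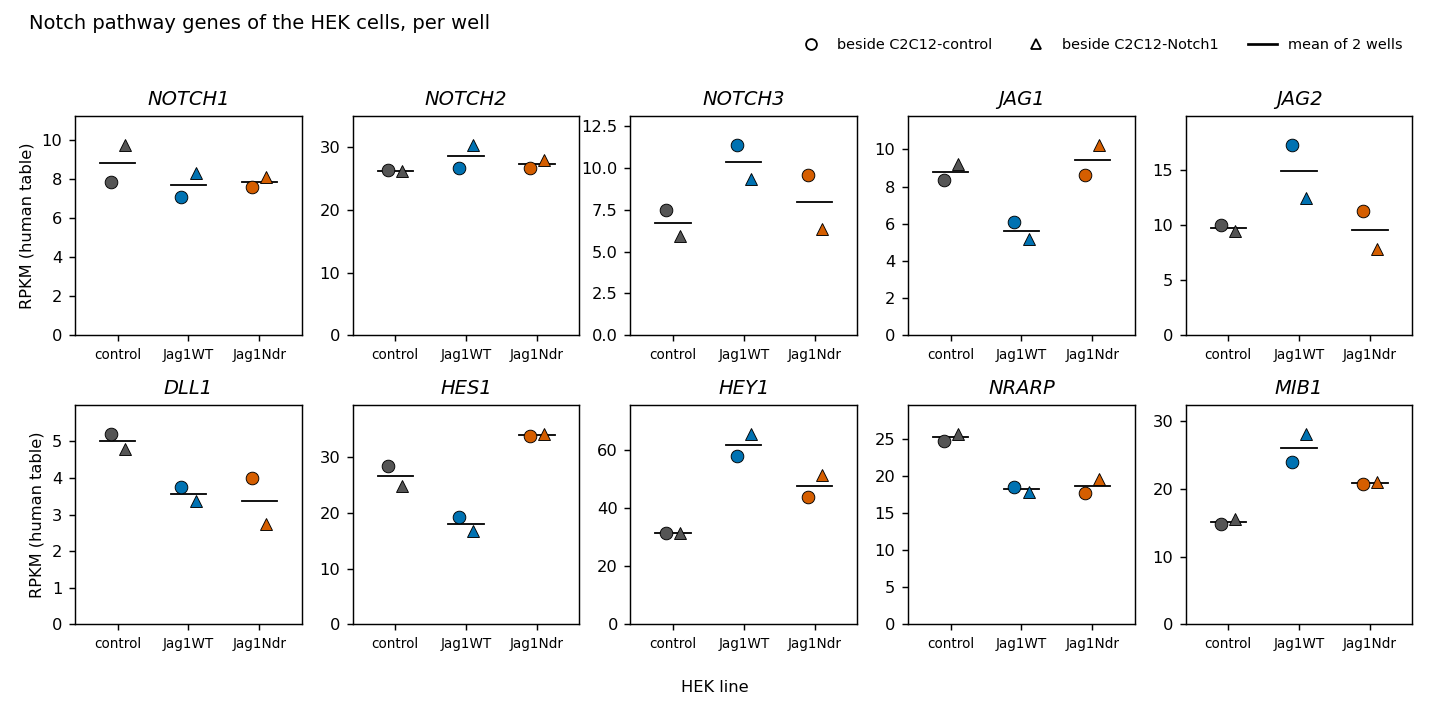
RPKM of each of the 10 genes in each of the 6 wells by HEK line, circles beside C2C12-control and triangles beside C2C12-Notch1, with a line at the mean of 2 wells. HEY1 reached 58.1 and 65.6 RPKM in the HEK-Jag1WT wells against 31.4 in both HEK-control wells, and HES1 was lowest in the HEK-Jag1WT wells, at 19.3 and 16.7.

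The first comparison asked how the line with wild-type Jag1 differed from HEK-control. With edgeR's quasi-likelihood test at an adjusted p of 0.05, 9 of the 10 genes differed: NOTCH3, JAG2, HEY1 and MIB1 were higher and NOTCH1, JAG1, DLL1, HES1 and NRARP lower. The background was high, since 54.3% of all tested genes were called in this comparison, 24.9% as higher and 29.4% as lower. DESeq2 called 7 of the 10 genes, against 31.4% of all. The median absolute log2 difference was 0.558 over the 10 genes and 0.325 over all tested genes. RPKM values of the compared lines did not overlap for 9 of the 10 genes, all but NOTCH1, against 73% of all tested genes.

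The second comparison set HEK-Jag1Ndr against HEK-control, and 6 of the 10 genes were called, against 46.1% of all tested genes. NOTCH3, HES1, HEY1 and MIB1 were higher and DLL1 and NRARP lower, where 22.6% of all tested genes were called higher and 23.5% lower. DESeq2 called 3 of the 10 genes, against 22% of all. The median absolute log2 difference was 0.300 over the 10 genes, against 0.257 over all tested genes, and RPKM did not overlap for 6 of 10 genes, against 66.5% of all. The third comparison, between the 2 Jag1 lines, called 6 of 10 genes, against 57.7% of all tested genes. JAG1 and HES1 were higher and NOTCH3, JAG2, HEY1 and MIB1 lower in HEK-Jag1Ndr, where 29.2% of all were called higher and 28.5% lower. DESeq2 called 6 of the 10 genes, against 35.8% of all. There the median absolute difference of the 10 genes was 0.323, against 0.354 for all genes, and 5 of 10 did not overlap, against 73.2% of all. These 3 comparisons share wells with one another, so their values are given side by side and are not independent.

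**Figure D2:**
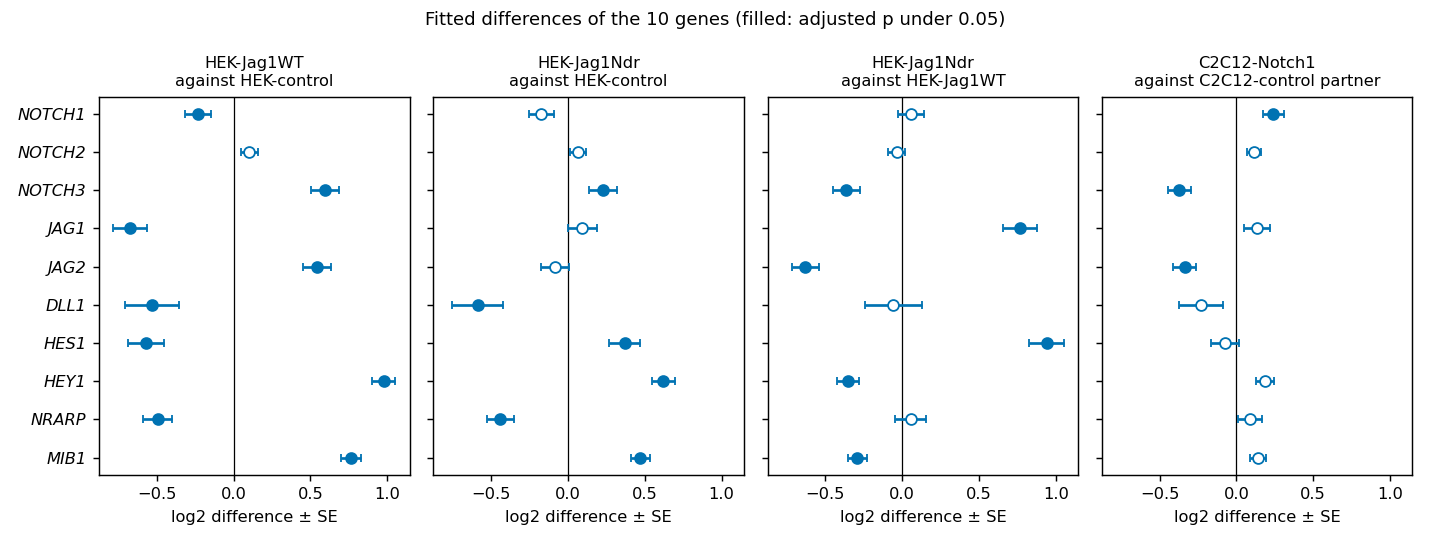
Log2 difference of each of the 10 genes in the 4 comparisons, with 1 standard error of the edgeR fit as bars; filled points have an adjusted p under 0.05. Against HEK-control, HEY1 and MIB1 lay at 0.98 and 0.76 in HEK-Jag1WT and at 0.62 and 0.47 in HEK-Jag1Ndr, while HES1 lay at -0.57 and 0.37.

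Among the receptors, NOTCH3 differed most between the HEK lines. Its level beside C2C12-control was 7.47 RPKM in HEK-control, 11.4 in HEK-Jag1WT and 9.55 in HEK-Jag1Ndr, and beside C2C12-Notch1 it was 5.94, 9.34 and 6.35. Both HEK-Jag1WT wells were above both HEK-control wells, whereas the HEK-Jag1Ndr wells overlapped those of the other lines. NOTCH3, which is itself a Notch target in several cell types, rose in HEK-Jag1WT by 0.59 on the log2 scale (SE 0.0901, edgeR adjusted p = 8.15e-08), a 1.51-fold difference. It was lower in HEK-Jag1Ndr than in HEK-Jag1WT, with a log2 value of -0.36 (SE 0.0867, adjusted p = 0.000267). The difference of 0.23 between HEK-Jag1Ndr and HEK-control (SE 0.0904, adjusted p = 0.0316) rested on single wells. Without the HEK-Jag1Ndr well beside C2C12-control it was 0.10 (adjusted p = 0.562), without the HEK-control well beside C2C12-control its adjusted p was 0.101, and DESeq2 gave 0.239 and limma 0.195. Without HEK-Jag1Ndr beside C2C12-Notch1 it was 0.36 (adjusted p = 0.0114). It also lost its call with mouse Notch3 reads subtracted at 4.29% (adjusted p = 0.105).

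NOTCH2 was the main receptor message of the HEK cells. It stood at 26.3, 26.6 and 26.7 RPKM beside C2C12-control and at 26.1, 30.3 and 28.0 beside C2C12-Notch1, in the order HEK-control, HEK-Jag1WT and HEK-Jag1Ndr. It made up 59.1 to 65.9% of the summed RPKM of the 3 receptors in every well, and that sum ranged from 41.7 to 48.0 RPKM. No comparison of HEK lines called it: the log2 difference from HEK-control was 0.10 in HEK-Jag1WT (95% interval -0.01 to 0.21, edgeR adjusted p = 0.114) and 0.07 in HEK-Jag1Ndr (-0.04 to 0.18, adjusted p = 0.324). The first of these passed the threshold when only the 4 wells of the compared lines were fitted (adjusted p = 0.0314), when scaled by total reads (0.0488), and without either well of these lines beside C2C12-control (0.00415 and 0.0499). The second passed it without HEK-control beside C2C12-control (adjusted p = 0.0429). NOTCH2NL is a partial near-identical copy of NOTCH2, so reads may have been split between the pair and both values are uncertain. NOTCH2NL had 5.83, 9.0 and 4.30 RPKM beside C2C12-control and 5.35, 8.84 and 3.69 beside C2C12-Notch1. Its edgeR log2 differences were 0.64 in HEK-Jag1WT (adjusted p = 0.00251) and -0.49 in HEK-Jag1Ndr (adjusted p = 0.0485) against HEK-control. Neither call held under every alternative, where the adjusted p reached 0.119 and 0.372.

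NOTCH1, the receptor that the partner line carries as an introduced mouse gene, was present in the HEK cells at 7.87, 7.08 and 7.63 RPKM beside C2C12-control and at 9.78, 8.33 and 8.11 beside C2C12-Notch1, in the same order of lines. The HEK lines overlapped. The log2 difference of -0.23 in HEK-Jag1WT (SE 0.0839, edgeR adjusted p = 0.0174) was lost with DESeq2 (adjusted p = 0.272), with limma on RPKM (0.208), and without 1 of 3 wells: HEK-Jag1WT beside C2C12-control (0.215), HEK-Jag1WT beside C2C12-Notch1 (0.190) or HEK-control beside C2C12-Notch1 (-0.14, adjusted p = 0.336). In HEK-Jag1Ndr the difference of -0.17 was not called (95% interval -0.33 to -0.01 before adjustment, adjusted p = 0.0713). It was called without HEK-control beside C2C12-control (-0.22, adjusted p = 0.0256) and with mouse Notch1 reads subtracted at 4.29% (-0.29, adjusted p = 0.0088).

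The endogenous ligands JAG1 and JAG2 moved in opposite directions in HEK-Jag1WT. JAG1 stood at 8.33, 6.07 and 8.60 RPKM beside C2C12-control and at 9.23, 5.16 and 10.2 beside C2C12-Notch1. The 2 HEK-Jag1WT wells were the lowest of the 6, and the other 2 lines overlapped. JAG1 fell to 0.627 times its HEK-control level in HEK-Jag1WT (log2 -0.67, SE 0.110, edgeR adjusted p = 4.48e-07). Single wells gave a log2 ratio of -0.48 (95% counting interval -0.78 to -0.19) beside C2C12-control and -0.85 (-1.11 to -0.60) beside C2C12-Notch1. The lower well weighed on the estimate, which was -0.40 (adjusted p = 0.0292) without HEK-Jag1WT beside C2C12-Notch1. HEK-Jag1Ndr differed from HEK-control by 0.09 (95% interval -0.10 to 0.28, adjusted p = 0.447), a range that does not reach the HEK-Jag1WT value. The difference between the Jag1 lines was 0.77 (SE 0.108, edgeR adjusted p = 9.67e-09). JAG1 was left out of both subtractions of mouse reads. In the wells with a Jag1 line, human JAG1 reads were 0.355 to 0.648% of the mouse Jag1 reads. The share of the 9 myoblast markers had a median of 0.292% and ran from 0 to 4.29%. Misassigned mouse reads could thus be a large part of human JAG1 there, or almost none of it. The size of JAG1 levels in both Jag1 lines, and of all differences drawn from them, is uncertain to that extent. Mouse Jag1 had 110 and 280 reads in the HEK-control wells. Misassigned reads would therefore add to human JAG1 mainly in the Jag1 lines. Taking them away would make the fall in HEK-Jag1WT larger. It could also turn the small difference of HEK-Jag1Ndr from HEK-control into a fall, so that value is the less certain. This was not tested.

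JAG2 was the highest of the 3 ligands in 5 of 6 wells. Its levels were 10.0, 17.3 and 11.3 RPKM beside C2C12-control and 9.45, 12.4 and 7.84 beside C2C12-Notch1. Both HEK-Jag1WT wells were above the other 4. JAG2 rose 1.46-fold in HEK-Jag1WT (log2 0.55, SE 0.0908, edgeR adjusted p = 6.55e-07) and was lower in HEK-Jag1Ndr than in HEK-Jag1WT (log2 -0.63, SE 0.0902, adjusted p = 1.61e-08). Against HEK-control, HEK-Jag1Ndr differed by -0.08 (95% interval -0.27 to 0.10, adjusted p = 0.496), and without HEK-control beside C2C12-control by -0.24 (adjusted p = 0.043). The ratio of JAG2 to JAG1 in RPKM was 2.85 and 2.41 in the HEK-Jag1WT wells and 0.765 to 1.31 in the other 4. JAG2 accordingly made up 63.8 and 59.4% of the 3 ligands' summed RPKM in HEK-Jag1WT, and 37.6 to 47.2% elsewhere. In the well of HEK-Jag1Ndr beside C2C12-Notch1, JAG1 was instead the largest, at 49.2%.

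DLL1, a Delta-type ligand, was the least abundant of the 10 genes, with 60 to 163 reads per well. It stood at 5.21, 3.75 and 4.0 RPKM beside C2C12-control and at 4.79, 3.36 and 2.75 beside C2C12-Notch1. Both HEK-control wells were the highest. The log2 difference from HEK-control was -0.53 in HEK-Jag1WT (SE 0.173, edgeR adjusted p = 0.00774) and -0.59 in HEK-Jag1Ndr (SE 0.165, adjusted p = 0.00256). Neither was called by DESeq2 (adjusted p = 0.217 and 0.176). The first call was also lost without HEK-Jag1WT beside C2C12-control (0.126), HEK-Jag1WT beside C2C12-Notch1 (0.0518) or HEK-control beside C2C12-Notch1 (0.186), and the second without HEK-Jag1Ndr (0.182) or HEK-control (0.129) beside C2C12-Notch1. The Jag1 lines differed by -0.06, with a wide 95% interval of -0.43 to 0.31.

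MIB1, the ubiquitin ligase that acts on Notch ligands in the sending cell, was higher in both Jag1 lines. Its levels were 14.7, 23.9 and 20.8 RPKM beside C2C12-control and 15.5, 28.1 and 21.0 beside C2C12-Notch1. The order of the lines was the same beside both partners, with no overlap: HEK-control lowest, HEK-Jag1Ndr between and HEK-Jag1WT highest. MIB1 rose 1.70-fold in HEK-Jag1WT (log2 0.76, SE 0.0633, edgeR adjusted p = 2.45e-16) and 1.39-fold in HEK-Jag1Ndr (log2 0.47, SE 0.0632, adjusted p = 4.5e-09). It was lower in HEK-Jag1Ndr than in HEK-Jag1WT by -0.29 (SE 0.0604, adjusted p = 3.33e-05), a call that was lost without HEK-Jag1WT beside C2C12-Notch1 (adjusted p = 0.0538).

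**Figure D3:**
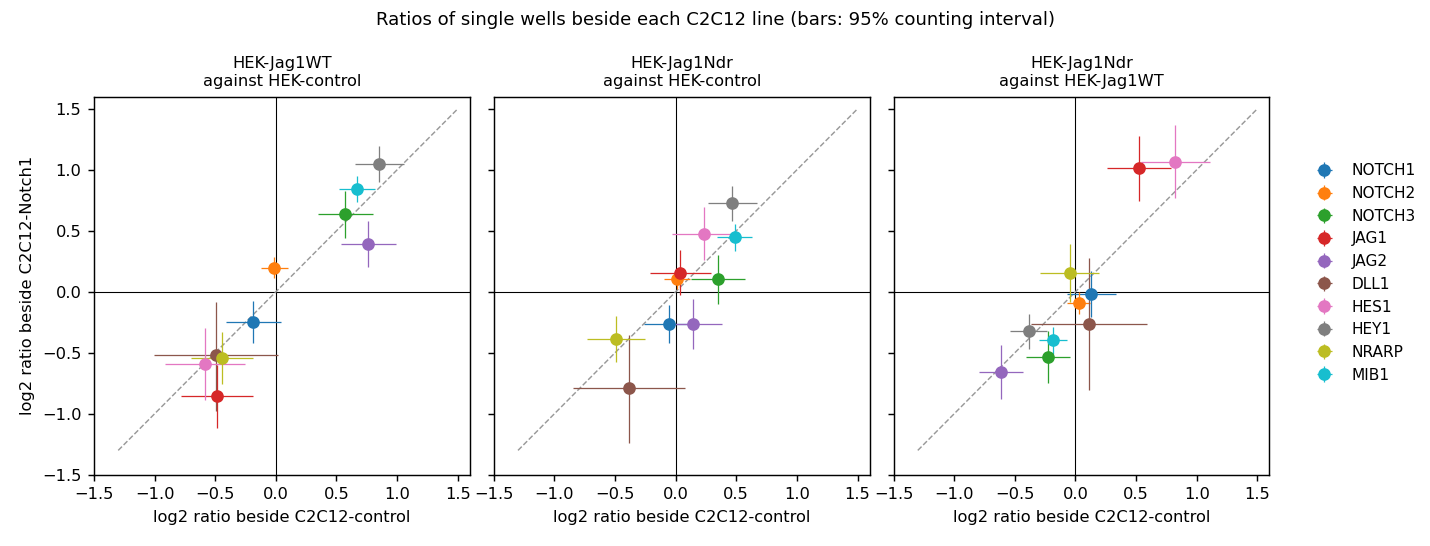
Log2 ratios of single wells for each of the 10 genes in the 3 comparisons of HEK lines, beside C2C12-control (horizontal axis) and beside C2C12-Notch1 (vertical axis), with 95% counting intervals and a dashed line of equality. The MIB1 ratio of HEK-Jag1WT to HEK-control was 0.67 beside C2C12-control and 0.84 beside C2C12-Notch1, and that of HEY1 was 0.85 and 1.05.

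The 3 target genes did not move as a group. HEY1, a bHLH repressor activated by Notch, had 31.4, 58.1 and 43.7 RPKM beside C2C12-control and 31.4, 65.6 and 51.5 beside C2C12-Notch1. The lines did not overlap and had the same order beside both partners. HEY1 rose 1.97-fold in HEK-Jag1WT (log2 0.98, SE 0.0764, edgeR adjusted p = 2.42e-17) and 1.54-fold in HEK-Jag1Ndr (log2 0.62, SE 0.0765, adjusted p = 4.27e-10). HEK-Jag1Ndr was below HEK-Jag1WT by -0.35 (SE 0.0711, adjusted p = 1.97e-05). Mouse Hey1 was also higher beside the Jag1 lines, with 1215 reads in the HEK-Jag1WT well, 705 in the HEK-Jag1Ndr well and 133 in the HEK-control well of C2C12-control, and 879, 695 and 437 in those of C2C12-Notch1. With these reads subtracted from human HEY1 at 0.648% and at 4.29%, the difference in HEK-Jag1WT was 0.97 and 0.92.

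HES1, the related bHLH repressor, was lowest in HEK-Jag1WT and highest in HEK-Jag1Ndr. It stood at 28.4, 19.3 and 33.7 RPKM beside C2C12-control and at 24.8, 16.7 and 34.2 beside C2C12-Notch1. No 2 lines overlapped. HES1 fell to 0.673 times its HEK-control level in HEK-Jag1WT (log2 -0.57, SE 0.119, edgeR adjusted p = 4.61e-05). It was higher in HEK-Jag1Ndr than in HEK-control by 0.37 (SE 0.101, adjusted p = 0.00186), but this was lost with DESeq2 (0.115), without HEK-control beside C2C12-Notch1 (0.128), and without HEK-Jag1Ndr beside C2C12-Notch1, where it was 0.23 (adjusted p = 0.233). The Jag1 lines differed by 0.94 (SE 0.113, edgeR adjusted p = 1.09e-10), the largest of the 10 genes' differences between these lines. The ratio of HEY1 to HES1 in RPKM was 3.00 and 3.94 in HEK-Jag1WT, 1.30 and 1.51 in HEK-Jag1Ndr, and 1.10 and 1.27 in HEK-control, in each pair first beside C2C12-control.

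NRARP, a feedback inhibitor that acts on the nuclear Notch complex, was lower in both Jag1 lines. Its levels were 24.8, 18.6 and 17.7 RPKM beside C2C12-control and 25.7, 17.8 and 19.6 beside C2C12-Notch1. Both HEK-control wells were above the other 4, in which the Jag1 lines overlapped. The log2 difference was -0.49 in HEK-Jag1WT (SE 0.0955, edgeR adjusted p = 1.29e-05) and -0.44 in HEK-Jag1Ndr (SE 0.0906, adjusted p = 5.04e-05). Between the Jag1 lines it was 0.05, with a 95% interval of -0.14 to 0.25. In the same wells mouse Nrarp reads numbered 2 and 10 with HEK-control, 75 and 174 with HEK-Jag1WT, and 16 and 22 with HEK-Jag1Ndr, so its order was unlike that of the human gene.

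**Figure D4:**
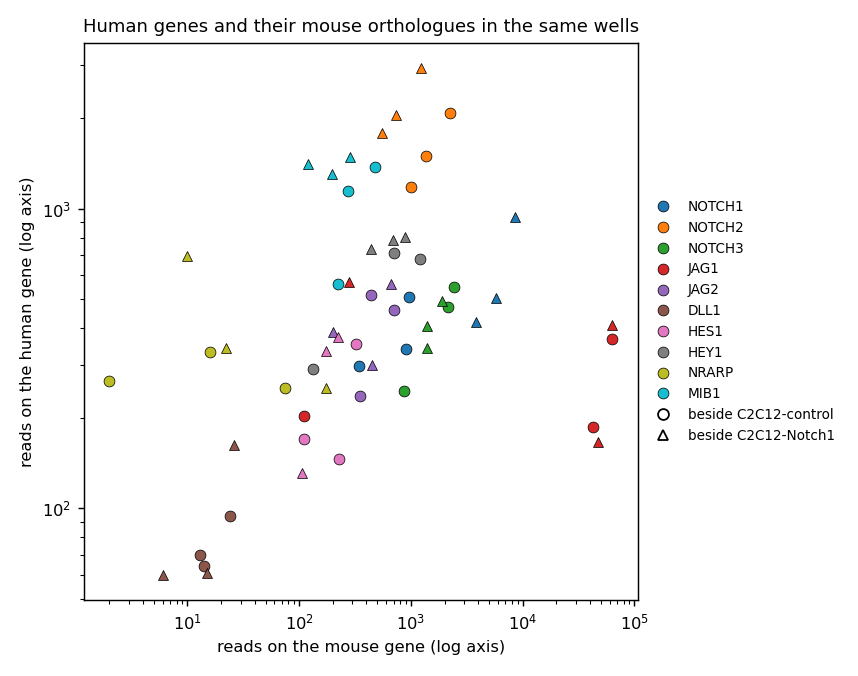
Reads on each human gene (vertical log axis) against reads on its mouse orthologue (horizontal log axis) in the same well, circles beside C2C12-control and triangles beside C2C12-Notch1; depth differs between wells. Mouse Jag1 spanned 110 to 63416 reads across the wells, whereas human JAG1 stayed between 166 and 568.

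The fourth comparison asked whether the HEK cells differed with their partner, C2C12-Notch1 against C2C12-control, and it moved the 10 genes less than the HEK line did. With edgeR 3 were called, NOTCH1 higher and NOTCH3 and JAG2 lower, against 4.84% of all tested genes, 3.07% as higher and 1.77% as lower. DESeq2, which called 0.522% of all tested genes, and limma called 0 of the 10 at an adjusted p of 0.05. An unadjusted p under 0.05 was found for 6 of the 10 genes in edgeR, 3 in DESeq2 and 2 in limma. In edgeR 2503 of all 13596 tested genes had such a p. The matching counts for DESeq2 and limma were not computed, so their 3 and 2 cannot be set against a background. The median absolute log2 difference was 0.163 over the 10 genes and 0.100 over all tested genes. RPKM did not overlap between partners for 1 of 10 genes, NOTCH1, against 3.69% of all tested genes.

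NOTCH3 was lower beside C2C12-Notch1 (log2 -0.37, SE 0.0731, edgeR adjusted p = 0.000465). It was lower in 3 of 3 HEK lines, by -0.31 in HEK-control, -0.24 in HEK-Jag1WT and -0.55 in HEK-Jag1Ndr. DESeq2 gave an adjusted p of 0.109 and limma 0.195, and the call was lost without the HEK-Jag1Ndr well beside C2C12-control (0.133) or C2C12-Notch1 (0.126). JAG2 was lower by -0.34 (SE 0.0753, edgeR adjusted p = 0.00266), also in 3 of 3 lines, by -0.07, -0.44 and -0.48 in the same order. This too was lost with DESeq2 (0.261), with limma (0.226), and without any of the 4 wells with a Jag1 line (0.138 to 0.167).

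NOTCH1 was higher beside C2C12-Notch1 by 0.24 (SE 0.0682, edgeR adjusted p = 0.0255), in 3 of 3 HEK lines. Mouse Notch1 reads in the same wells were 3847 to 8576, against 343 to 963 beside C2C12-control. With mouse reads subtracted at 0.648% the difference was 0.16 (adjusted p = 0.185), and at 4.29% it turned to -0.44 (adjusted p = 0.000131). The call was further lost with DESeq2 (0.463), with limma (0.355), with scaling by total reads (0.0654) and without any 1 of the 6 wells (0.0553 to 0.235). HES1 and NRARP were not called, with log2 differences of -0.08 (95% interval -0.25 to 0.10) and 0.09 (-0.07 to 0.24). HEY1 and MIB1 differed by 0.19 and 0.14, in 3 of 3 lines each, at edgeR adjusted p = 0.0604 and 0.0969. NOTCH2, at 0.11 (adjusted p = 0.137), HEY1 and MIB1 were all called as higher when either HEK-control well was left out, with adjusted p of 0.00221 to 0.0237. JAG1, at 0.13 (95% interval -0.04 to 0.30), and DLL1, at -0.23 (-0.51 to 0.06), were not called. The share of mouse reads differed between the partners, as given above, and its part in these differences was not tested.

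The wider pathway was read from lists of 71 genes that include the 10, of which 67 were tested; NOTCH3 and NRARP each stand in 2 lists, as targets and as a receptor and a regulator. Outside the 10 genes, 57 were tested: 12 were higher and 21 lower in HEK-Jag1WT, 17 higher and 14 lower in HEK-Jag1Ndr, 22 higher and 8 lower in HEK-Jag1Ndr against HEK-Jag1WT, and 3 higher and 2 lower beside C2C12-Notch1. As shares these were 57.9, 54.4, 52.6 and 8.77%, beside 54.3, 46.1, 57.7 and 4.84% of all tested genes.

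Of the 11 tested target genes, 3 were higher and 6 lower in HEK-Jag1WT, with a median log2 difference of -0.49, against -0.03 over all genes. In HEK-Jag1Ndr 6 were higher and 3 lower, with a median of 0.17. The share of target genes called was 81.8% in each line, beside 54.3% of all tested genes in HEK-Jag1WT and 46.1% in HEK-Jag1Ndr. MYC, a growth regulator and Notch target in some cell types, had 97.2, 22.8 and 47.0 RPKM beside C2C12-control and 95.8, 26.1 and 55.3 beside C2C12-Notch1. The lines did not overlap, and MYC fell by 1.99 in HEK-Jag1WT (SE 0.0768, edgeR adjusted p = 3.27e-32) and by 0.91 in HEK-Jag1Ndr on the log2 scale (adjusted p = 1.18e-18). CCND1, encoding cyclin D1, had 50.6, 27.8 and 56.8 RPKM and then 50.5, 28.1 and 56.9, so that its low level was in HEK-Jag1WT (log2 -0.88, edgeR adjusted p = 1.34e-18). The 3 higher target genes in HEK-Jag1WT were HEY1, NOTCH3 and HES7, the last named after its values were seen and with 54 reads over all 6 wells.

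The 4 tested enzymes that glycosylate the receptors had a median log2 difference of -0.73 in HEK-Jag1WT, with 3 lower and 0 higher, where 29.4% of all tested genes were lower. In HEK-Jag1Ndr their median was -0.0159, with 1 lower (25%) and 0 higher, where 23.5% of all tested genes were lower. POFUT1, which adds O-fucose to the receptor's EGF repeats, differed by -0.70 (edgeR adjusted p = 4.65e-14), and RFNG, a Fringe enzyme that extends that fucose, by -0.76 (adjusted p = 2.42e-10). Of 9 receptor-processing genes, 0 were higher and 3 lower in HEK-Jag1WT, and 2 were higher and 5 lower in HEK-Jag1Ndr. As shares called these were 33.3 and 77.8%, beside 54.3 and 46.1% of all tested genes. PSENEN, a subunit of gamma-secretase, stood at 74.7, 77.9 and 34.6 RPKM beside C2C12-control and at 73.0, 79.2 and 31.5 beside C2C12-Notch1. It was low in the HEK-Jag1Ndr wells, with a log2 difference of -1.16 from HEK-control (edgeR adjusted p = 1.50e-13) and -1.22 from HEK-Jag1WT (1.82e-14).

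Of 16 genes of the nuclear complex, 9 were higher and 5 lower in HEK-Jag1WT, and 8 were higher and 3 lower in HEK-Jag1Ndr. HDAC2, a histone deacetylase of corepressor complexes, rose by 0.61 in HEK-Jag1Ndr (edgeR adjusted p = 6.82e-16). SPEN, a corepressor bound by RBPJ, was higher in HEK-Jag1Ndr than in HEK-Jag1WT by 0.59 (adjusted p = 5.38e-17). Among the 11 regulators, 1 was higher and 5 lower in HEK-Jag1WT, and 2 were higher and 2 lower in HEK-Jag1Ndr. NUMB, an endocytic inhibitor of the receptor, rose by 0.64 in HEK-Jag1Ndr (adjusted p = 6.91e-12). The 8 tested ligand endocytosis genes, MIB1 among them, split 2 higher and 2 lower in HEK-Jag1WT and 3 and 1 in HEK-Jag1Ndr. Shares called in HEK-Jag1WT were 87.5% of the nuclear complex, 54.5% of the regulators and 50% of ligand endocytosis, beside 54.3% of all tested genes. In HEK-Jag1Ndr they were 68.8, 36.4 and 50%, beside 46.1% of all.

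Beside C2C12-Notch1, the coactivator EP300 differed by 0.30 (edgeR adjusted p = 4.65e-05), which limma did not call (0.193). MAML3, a Mastermind-like coactivator, differed by 0.49 (adjusted p = 0.0238) and the endocytic adaptor EPN1 by -0.19 (0.0260). The last pair were lost with limma and without any of the 4 wells with a Jag1 line, and EPN1 also with DESeq2.

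**Figure D5:**
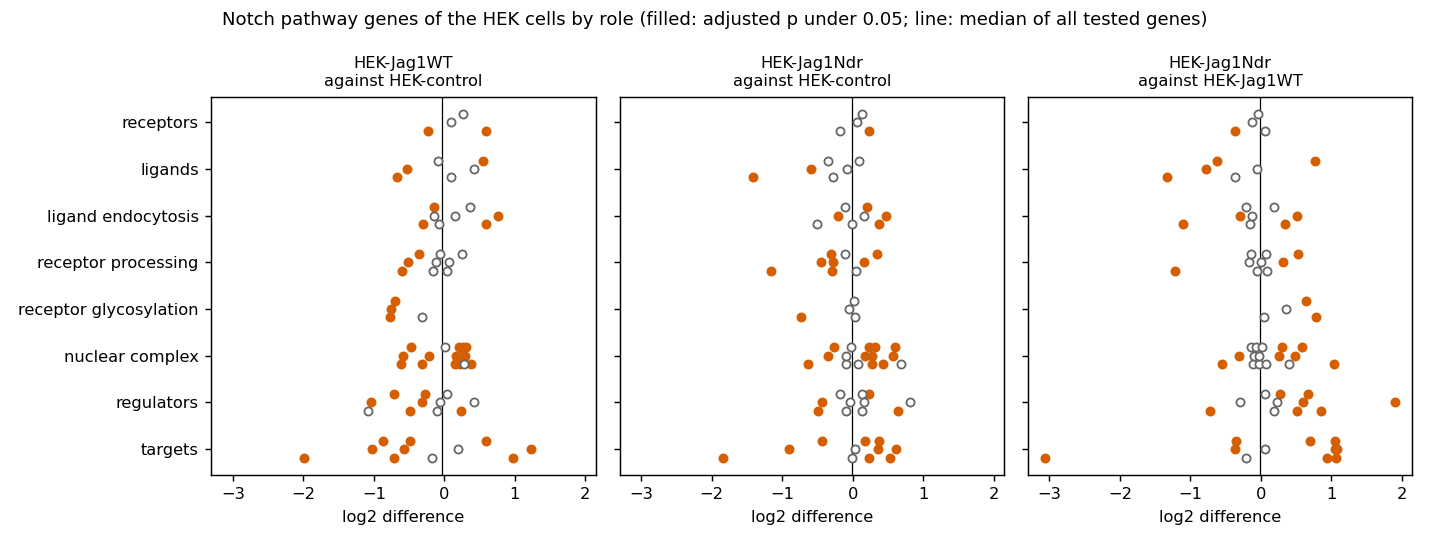
Log2 differences of the tested pathway genes by role in the 3 comparisons of HEK lines; each point is a gene, filled at an edgeR adjusted p under 0.05, and the vertical line marks the median of all tested genes. Target genes spread on both sides, with MYC at -1.99 and HEY1 at 0.98 in HEK-Jag1WT.

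Genes with the most similar pattern over the 6 wells were sought by the root mean square difference of centred log2 read counts scaled to library size, among 13595 other genes, as a description of these wells. For JAG1 they were ISCA1, CSNK2A2 and CCDC115, at 0.0422, 0.0454 and 0.0521, against a median of 0.427 over all genes. For NOTCH1 they were ZCCHC17 at 0.0534, THAP1 at 0.0555 and KIAA0947 at 0.0599, against 0.294. For HES1 they were GLRX at 0.0447, SLC18B1 at 0.0530 and MAST3 at 0.0585, against 0.459.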

How the data were processed

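PolyA RNA of 6 wells was sequenced from TruSeq libraries that do not mark strand, per the labels' protocols. The submitters' processing notes name STAR, hg19 and mm9. The sources used here give no counter, no versions and no method for assigning reads to species. Human and mouse results came from the files the authors deposited, 1 table per species with read counts per gene and RPKM values, per the file headers. From the 24303 human entries 448 exact repeats were dropped, and 240 repeated names were given a suffix.

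The deposited counts of all human genes were fitted with edgeR 4.0.16 in R 4.3.3 (TMM scaling, filterByExpr, robust quasi-likelihood test, Benjamini-Hochberg adjustment), with additive terms for the C2C12 line and the HEK line over the 6 wells. Wells with a line in common were its replicates, and 2 residual degrees of freedom remained. The spread of each gene was therefore estimated with information shared over all tested genes. Intervals of fitted differences are at 95% and unadjusted. Single-well ratios carry exact binomial intervals, which cover counting error only. Alternatives used DESeq2 1.42.0, limma 3.58.1 on log2(RPKM + 0.5), other scalings and filters, and each well left out. On data simulated for HEK-Jag1WT against HEK-control over 13395 genes, 71.4% of 98 genes changed 1.5-fold and 91.9% of 99 changed 2-fold were recovered, with 4 false calls among 165. The simulation gave every gene the same spread, estimated from these wells, with no effect of the partner and 200 genes changed. Its rates therefore do not carry over to calls in the real wells.

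Named were all 10 genes, the mouse orthologues, NOTCH2NL, up to 4 other listed pathway genes per comparison by smallest p, and the 3 genes most like JAG1, NOTCH1 and HES1. The genes and lists were chosen with earlier results of these data known. Some listed genes are not reported here by name.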

Additional observations from a re-analysis of the deposited data

Results flagged for a closer look

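For 6 gene and comparison pairs, the log2 ratio of single wells had one sign beside C2C12-control and the other beside C2C12-Notch1. None of these differences was tested, because each combination of lines was 1 well. JAG2 in HEK-Jag1Ndr against HEK-control was 0.15 beside C2C12-control and -0.26 beside C2C12-Notch1. NOTCH2 in HEK-Jag1WT against HEK-control was -0.0147 and 0.20. In HEK-Jag1Ndr against HEK-Jag1WT the 2 values were 0.13 and -0.0161 for NOTCH1, 0.0256 and -0.0910 for NOTCH2, 0.11 and -0.27 for DLL1, and -0.0476 and 0.16 for NRARP.

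For 3 genes the ratio of C2C12-Notch1 to C2C12-control wells changed sign between HEK lines, again without a test. JAG1 was at 0.17 in HEK-control, -0.20 in HEK-Jag1WT and 0.29 in HEK-Jag1Ndr. HES1 was at -0.18, -0.18 and 0.0590, and NRARP at 0.0780, -0.0211 and 0.18, in the same order.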

How the results depend on the processing

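No paired analysis was possible because each combination of lines was 1 well and the labels carry no replicate numbers to pair by; the term for the C2C12 line already compares HEK lines beside the same partner. Of 548 recomputed differences of the 10 genes, 480 kept their direction and side of the threshold, 41 lost and 16 gained a call, and 11 reversed. The 548 include JAG1 in both settings with mouse reads subtracted, although nothing was subtracted from JAG1 itself. Its values there could hardly move and do not address misassigned reads. The 548 also include fits without a well of the HEK line outside the comparison, which bear little on it. Without either HEK-Jag1Ndr well, JAG1 in HEK-Jag1WT against HEK-control stayed at -0.67. Such settings raise the number that stayed the same. For 2 further differences, DLL1 and HES1 by partner, DESeq2 gave no adjusted p, and they are not among the 548. The reversed values all belonged to uncalled differences except NOTCH1 by partner, at -0.44 with mouse reads subtracted at 4.29%. With each well left out in turn, the differences of HEK-Jag1Ndr from HEK-control ranged from -0.0157 to 0.14 for NOTCH2, from -0.0641 to 0.22 for JAG1 and from -0.24 to 0.14 for JAG2. Between the Jag1 lines they ranged from -0.0383 to 0.12 for NOTCH1, from -0.13 to 0.0213 for NOTCH2, from -0.28 to 0.0914 for DLL1 and from -0.0481 to 0.12 for NRARP. With the 4.29% subtraction NOTCH1 differed by -0.00693 between the Jag1 lines.

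Over all tested genes, edgeR called 7379, 6266, 7843 and 658 in the 4 comparisons, in the order of the text, and DESeq2 4267, 2995, 4866 and 71. For the partner, limma called 26, and edgeR with each well left out called 176 to 1428, with the high counts coming without a HEK-control well (1413 and 1428). Of the 10 genes, DESeq2 called 3 in HEK-Jag1Ndr against HEK-control. By partner DESeq2 and limma called 0, and edgeR with each well left out 0 to 5. The cause was not tested. Fitting only the wells of the compared lines was not run for the partner, since all wells belong to it. DLL1, with 60 to 163 reads per well, was the gene most limited by depth.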

Other observations

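Among listed pathway genes singled out after their values were seen, HEY2 and HEYL, close relatives of HEY1, differed from it in direction in HEK-Jag1WT. HEY2 stood at 14.1, 8.39 and 19.5 RPKM beside C2C12-control and at 16.3, 10.6 and 19.6 beside C2C12-Notch1, in the order HEK-control, HEK-Jag1WT and HEK-Jag1Ndr. HEYL stood at 8.56, 5.00 and 9.55 and then at 8.62, 3.77 and 8.30 RPKM. The edgeR log2 differences of HEK-Jag1WT from HEK-control were -0.71 for HEY2 and -1.02 for HEYL, beside 0.98 for HEY1. The divergent ligand DLL3 was low in HEK-Jag1Ndr, with 3.68 and 2.88 RPKM against 8.34 to 8.91 in the other 4 wells, a log2 difference of -1.42 from HEK-control. HES7 had 54 reads over all 6 wells and HES5 had 0.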
